A study of Homo sapiens with 15 samples.

Results

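A549 cells given geldanamycin at 40 nM for 48 h were compared with A549 cells given 10 nM for 48 h. The comparison rests on 6 of the 15 arrays of the series, 3 for each dose, chosen by their labelled agent, dose and time. A549 is an established human lung carcinoma line, and the labels give 40 nM as the IC50 and 10 nM as the IC20 of geldanamycin in it. Cells attached for 24 h before treatment in every group. The other 9 arrays, 3 in each group, are vehicle (DMSO at 0.4%) for 24 h, 40 nM for 24 h and vehicle for 48 h. They are used here only to place the levels of the 6. Total RNA was hybridized to Affymetrix HG-U133 Plus 2.0 arrays, and every level below is a log2 RMA value, on which a difference of 1 is 2-fold. A difference is 40 nM minus 10 nM unless another is named, and ± is its standard error from limma with 3 arrays a group, except where SD is written. No label ties the arrays of a group to separate cultures. The p-values therefore measure only how far these arrays differ, and that spread may be technical. All cells are of a single line, and no other line or clone was compared here.

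Geldanamycin occupies the nucleotide pocket of HSP90, a chaperone that keeps many kinases, steroid receptors and transcription factors in a form that can signal. When HSP90 is blocked, clients such as AKT, RAF and ERBB2 tend to be degraded at the protein level, and HSF1, which HSP90 holds in check, switches on genes of other chaperones. Geldanamycin is also a benzoquinone that cells reduce through enzymes such as NQO1, and quinone cycling is known to stress the glutathione and thioredoxin systems. NF-kB, the inflammatory transcription factor, depends on kinases that are HSP90 clients, and its targets include chemokines, cytokines and its own inhibitors.

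Some markers of the line stood high at both doses, and others of the same list did not. The keratin KRT8 stood at a mean of 12.73 at 10 nM and 13.05 at 40 nM, KRT18 at 14.02 and 13.90, and the aldo-keto reductase AKR1C1 at 13.75 and 13.95. EPCAM was low, with means of 5.12 at 10 nM and 5.63 at 40 nM. KRT19 stood at 5.90 and 8.95, and CDH1 at 9.78 and 8.73. The mean over the 11 measured line markers was 11.40 to 11.47 on the 10 nM arrays, 11.78 to 11.82 on the 40 nM arrays and 11.53 to 11.57 in vehicle at 48 h, and 7 of the 11 were higher at 40 nM and 1 lower. Markers of alveolar type 2 cells, the cell type A549 is often used to model, had a mean of 4.94 to 5.16 at 10 nM and 4.95 to 5.08 at 40 nM over 12 genes, and 0 of the 12 passed the test (limma, adjusted p below 0.05). The lung lineage factor NKX2-1 stood at 4.28 and 4.47. Leukocyte markers (10 genes, 1 higher and 1 lower) and endothelial markers (12 genes, 0 passing) had means between 4.20 and 4.49 at either dose, with the leukocyte phosphatase PTPRC at 3.49 and 3.56 and the endothelial adhesion molecule PECAM1 at 5.67 and 5.51. Fibroblast markers (12 genes, 3 higher and 1 lower) averaged 4.67 to 4.80 at 10 nM, up to 5.07 at 40 nM and 5.11 to 5.16 in vehicle. In bulk RNA, fewer cells of a type and less RNA per cell cannot be told apart.

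The 3 arrays at 10 nM stood apart from the other arrays at 48 h in 3 ways that bear on every result below. The first is in the control probe sets. Poly-A spikes, bacterial transcripts added to the RNA before labelling, averaged 3.37 ± 0.04 (SD, n = 3) at 10 nM, 5.81 ± 0.08 at 40 nM and 5.93 ± 0.06 in vehicle at 48 h. All 24 such probe sets were higher at 40 nM than at 10 nM, by 0.57 to 6.55. Hybridization controls, added after labelling, went the other way in 18 of 18 probe sets, with a median difference of -0.38. The second is the 5′ end of long transcripts. The 5′ control set of ACTB, beta-actin, stood at 11.02 ± 0.01 (SD) at 10 nM and 13.59 ± 0.03 at 40 nM, so that its 3′ set exceeded the 5′ set by 2.68 ± 0.03 at 10 nM and by 0.45 ± 0.03 at 40 nM. The shorter GAPDH transcript had 0.13 ± 0.004 and 0.15 ± 0.02 between the same ends.

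The third concerns whole chromosomes and the arrays of the earlier time. Genes of chromosome 7 lay lower on the 10 nM arrays and on all 6 arrays at 24 h than on the vehicle and 40 nM arrays at 48 h. Over genes with a mean level above 6, and relative to all autosomes, the median shift of chromosome 7 from vehicle at 48 h was -0.43 to -0.37 on the 10 nM arrays, -0.43 to -0.42 in vehicle at 24 h and -0.44 to -0.42 at 40 nM for 24 h. On the 40 nM arrays at 48 h it was -0.01 to 0.01. Chromosome 3 showed the same order at a smaller size, with -0.12 to -0.10 on the 10 nM arrays and 0.00 on those at 40 nM. In the dose comparison, 296 of 460 such genes on chromosome 7 were higher at 40 nM and 19 lower (64.3% and 4.1%). On chromosome 3 it was 39.1% and 17.5% of 555 genes, and on the other 20 autosomes 15.4% and 25.7% of 8591 genes. The median differences of those 20 chromosomes lay between -0.07 and -0.01, against 0.35 for chromosome 7.

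**Figure D1:**
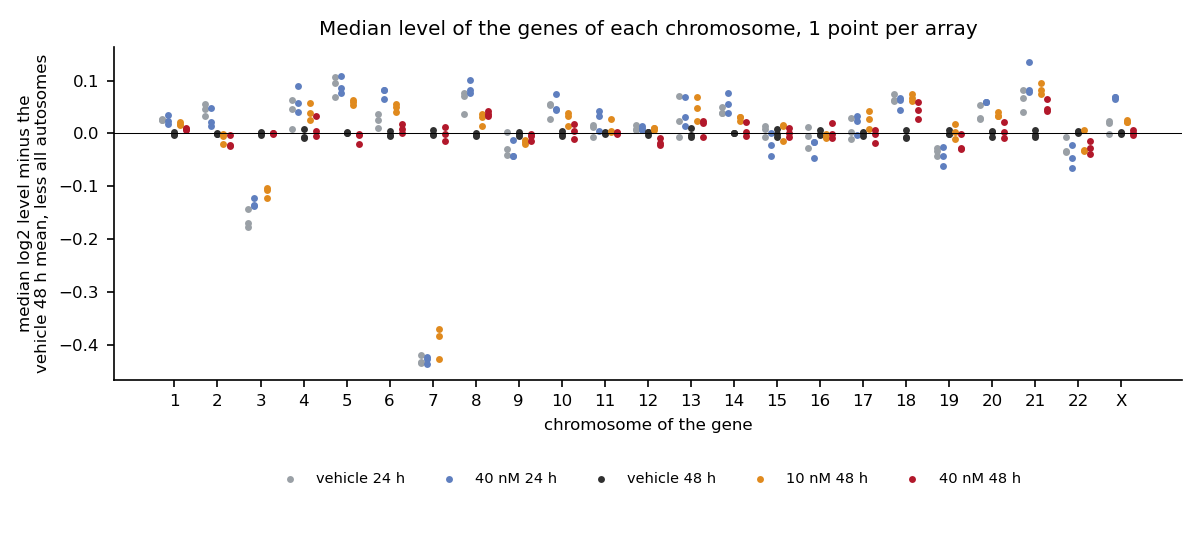
Median log2 level of the genes of each chromosome on each array, as a shift from the vehicle mean at 48 h and relative to all autosomes, for genes with a mean level above 6. On chromosome 7 the 10 nM arrays (-0.43 to -0.37) lie beside the 24 h arrays, and the 40 nM arrays at 48 h (-0.01 to 0.01) beside vehicle at 48 h.

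The same grouping of arrays recurred in single genes with very large differences. CDH6, a kidney-type cadherin, stood at 8.21, 8.26 and 8.36 on the 40 nM arrays and at 8.55 to 8.72 in vehicle at 48 h. On the 10 nM arrays it stood at 4.58, 4.19 and 4.52, and at 3.60 to 3.94 on the 6 arrays at 24 h. EDIL3, a secreted integrin ligand, ran the other way, at 10.45, 10.49 and 10.40 at 10 nM, 10.09 to 10.82 at 24 h, 5.05, 5.26 and 5.20 at 40 nM for 48 h, and 5.72 to 5.97 in vehicle at 48 h. Neither gene's level on the 10 nM arrays overlapped with either of the other groups at 48 h. The 2 times appear to have been normalized in separate runs, so the median step between the vehicles, 0.35, was subtracted before levels at 24 h and 48 h were set against each other. The dose of 10 nM and whatever else sets these 3 arrays apart cannot be told apart in this design. Therefore vehicle levels at 48 h are given beside the main members and lists, and some lists are counted again among genes whose 2 vehicle levels lay within 0.5 of each other after that step. That cut was chosen after the values were seen. Over genes with a mean level above 6, the median difference between the vehicles after the step was 0.42 on chromosome 7 and 0.15 on chromosome 3. Both lie under the cut, so counts among genes with like vehicles still hold genes with these chromosome shifts.

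Between the doses, 5211 of 19775 genes differed (26.4%; limma, adjusted p below 0.05), 2345 higher at 40 nM (11.9%) and 2866 lower (14.5%). Dose groups were apart, with no array of either inside the range of the other, for 5163 of the 5211 and for 39.9% of all genes. At least 2-fold differences were called for 377 genes (1.91%), 228 higher and 149 lower at 40 nM, and at least 4-fold ones for 53 higher and 25 lower. The median difference over all genes was -0.01 and the median standard error 0.10. Among the 17145 genes with like vehicle levels, 22.9% were called, against 48.6% of the others. Of the 377 genes at 2-fold or more, 78 had like vehicle levels, 38 of them higher and 40 lower at 40 nM.

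Of the 5163 genes called without overlap, all 3 arrays at 10 nM lay beyond all arrays of both vehicle and 40 nM in 3393 (65.7%), whether or not vehicle and 40 nM overlapped, above both in 1838 and below both in 1555. The 10 nM arrays lay between vehicle and 40 nM, with no overlap, in 466 (9.0%), rising with dose in 275 and falling in 191. Vehicle overlapped the range of 10 nM alone in 1139 genes and that of 40 nM alone in 1532, and the latter are among the 3393. All these counts are within the 5163 genes, which were selected for dose groups that are apart. The 3393 include genes with vehicle between the doses, where 40 nM lay at the other end. Neither the matching count for 40 nM nor the same shares over all genes were taken. The 65.7% therefore does not show that 10 nM was at an end more often than 40 nM.

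The difference between the vehicles at 48 h and 24 h uses none of the 6 arrays compared here. It passed 2-fold in 526 genes (2.66%; no test). Of the 377 genes at 2-fold or more between doses, 356 differed in the same direction between the vehicles, 211 of them by at least 2-fold, which is 56.0% of the 377 and 40.1% of the 526. Opposite 2-fold differences were found in 3. Across all 19775 genes the Pearson correlation of both differences was 0.57. It is given as a description, since genes are not replicates and the arrays of a time appear to share a normalization run.

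**Figure D2:**
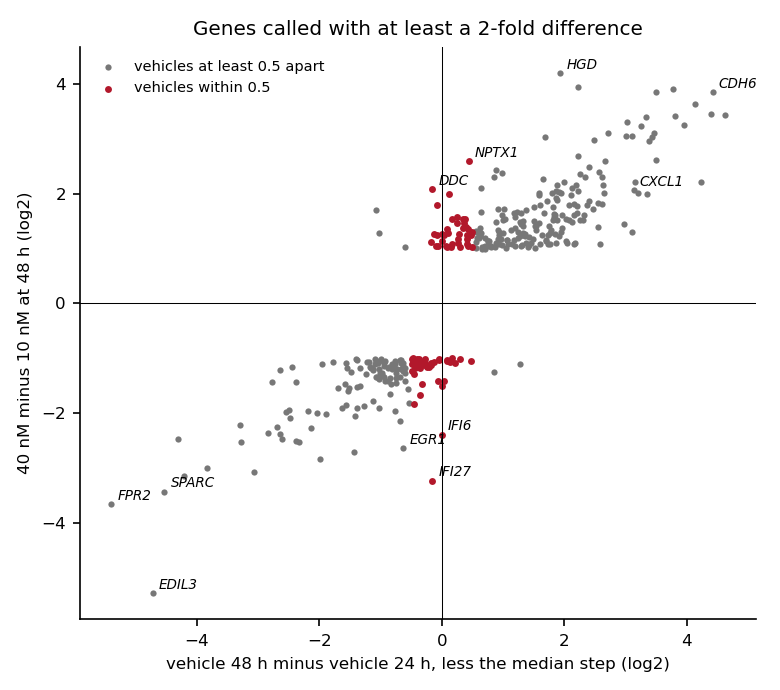
Each point is a gene called with a difference of at least 2-fold between 40 nM and 10 nM at 48 h (377 genes). The x axis gives vehicle at 48 h minus vehicle at 24 h after the median step of 0.35, the y axis 40 nM minus 10 nM, both in log2 units. Most points lie on the rising diagonal, and the 78 genes with vehicle levels within 0.5 of each other stand near x = 0.

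The 15 largest rises from 10 nM to 40 nM began with HGD, an enzyme of tyrosine breakdown. HGD stood at 5.17, 5.05 and 5.27 at 10 nM, at 9.37, 9.41 and 9.32 at 40 nM and at 6.78 to 7.16 in vehicle at 48 h. The groups did not overlap, and the difference of 4.20 ± 0.10 (18.4-fold, limma adjusted p = 6e-12) was read with the same sign by all 3 other probe sets of the gene (1.16 to 3.73). The tetraspanin-like TM4SF20 followed (3.94 ± 0.22), with 3.95 to 4.20 at 10 nM, 7.72 to 8.18 at 40 nM and 5.25 to 5.67 in vehicle. For these 2 genes the vehicle level lay between the doses and apart from each. Then came the tetraspanin TSPAN7 (3.91 ± 0.12), the ubiquitin ligase RNF128 (3.86 ± 0.16) and CDH6 (3.85 ± 0.10), with vehicle within 0.67 of the 40 nM mean in all 3. The scaffold CNKSR2, the fibrillin FBN2, the fibrillar collagen COL11A1, the monocarboxylate transporter SLC16A7 and the chemokine scavenger ACKR3 differed by 3.30 to 3.45. The sialyltransferase ST6GAL2, the transcription factor EBF1, the microtubule-binding MAP7D2 and the neuropeptide NTS differed by 3.10 to 3.26. Another of the 15 is Y-linked and is counted without values.

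The 15 largest falls from 10 nM to 40 nM began with EDIL3, at -5.28 ± 0.08 (38.7-fold lower, adjusted p = 4.7e-14). Its 2 other probe sets, dim at means of 3.75 and 3.48, read -0.12 and -0.06. FPR2, a receptor for formyl peptides, stood at 7.92 to 7.96 at 10 nM and at 4.19 to 4.33 at 40 nM, where vehicle was 4.24 to 4.71, and at 9.47 to 9.49 in vehicle at 24 h. SPARC, a matrix protein, stood at 10.71 to 10.78 at 10 nM against 7.22 to 7.50 at 40 nM and 6.69 to 6.87 in vehicle, and its other probe set read -3.20. In each of these 3 genes the 10 nM arrays alone were high at 48 h. The interferon-induced IFI27 (-3.23 ± 0.16) and the immediate-early factor EGR1 (-2.64 ± 0.07) are described below. The others were RGS4, which dampens G protein signals (-3.14 ± 0.20), the embryonic globin HBE1 (-3.08 ± 0.09), the actin-binding SHROOM2 (-3.00 ± 0.10), the kinase DCLK1 (-2.83 ± 0.13) and the oxidized-LDL receptor OLR1 (-2.70 ± 0.15). LIMA1, PADI2, CD74, TIAM1 and HLA-DPA1 differed by -2.53 to -2.47. Other, dim probe sets read 0.09 and -0.04 for CD74, -0.115 and -0.34 for PADI2, -0.17 for TIAM1 and 0.105 for HBE1. Those of LIMA1 (-2.64 and -1.24) and HLA-DPA1 (-1.05 and -0.35) were lower at 40 nM as well. Of the 30 genes, 28 also differed by at least 2-fold, with the same sign, between vehicle at 48 h and at 24 h.

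**Figure D3:**
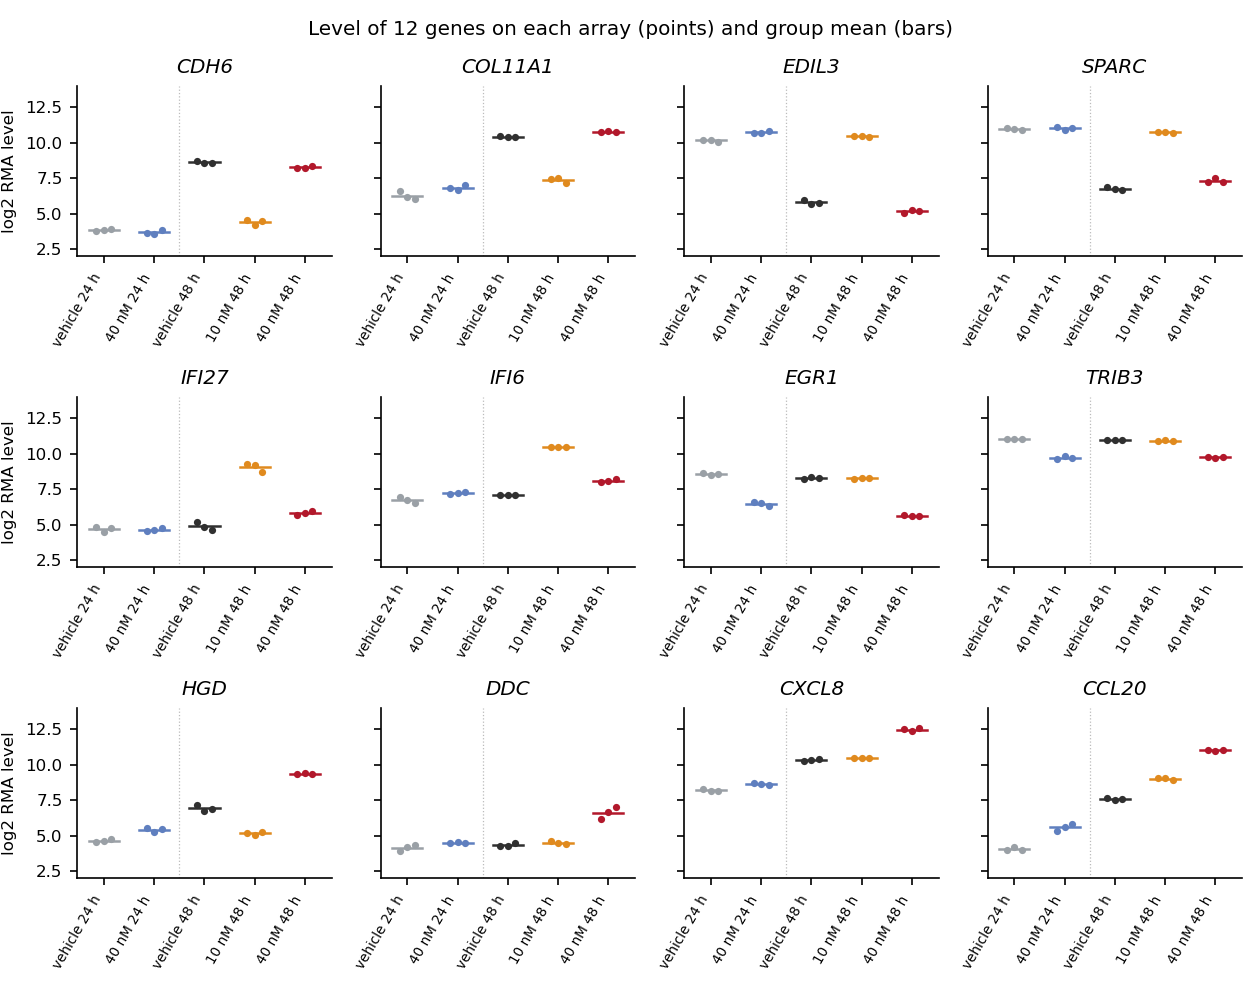
Log2 RMA level of 12 genes on each of the 15 arrays (points) with group means (bars), and a dotted line between the 2 times. CDH6, COL11A1, EDIL3 and SPARC at 10 nM stand with the 24 h arrays, IFI27 and IFI6 are high at 10 nM alone, EGR1 and TRIB3 are low at 40 nM at both times, and CCL20 rises from vehicle through 10 nM to 40 nM.

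CD74 and HLA-DPA1 belong to the class II antigen presentation set, in which CD74 is the invariant chain and CIITA the master regulator. HLA-DPA1 stood at a mean of 6.46 at 10 nM, 3.99 at 40 nM, 3.39 in vehicle at 48 h and 7.35 in vehicle at 24 h. HLA-DPB1 (-0.88 ± 0.15, not called from another probe set at -0.14), HLA-DRA (-0.82 ± 0.14) and HLA-DMA (-0.86 ± 0.12) were lower at 40 nM too. HLA-DRB1 (-0.20 ± 0.14), HLA-DMB (0.01 ± 0.12) and CIITA (0.13 ± 0.16) did not pass. These genes were picked after their values were seen. Vehicle at 48 h minus vehicle at 24 h, after the step, was -4.30 in HLA-DPA1, -2.52 in HLA-DPB1, -2.29 in HLA-DRA and -1.84 in HLA-DMA.

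Genes with like vehicle levels gave another set of large differences. Among the 38 such genes that were at least 2-fold higher at 40 nM, NPTX1, a secreted synaptic pentraxin, stood at 6.75 to 7.06 at 10 nM, 9.44 to 9.56 at 40 nM and 7.89 to 7.92 in vehicle (2.59 ± 0.11, adjusted p = 7.1e-10). At 24 h, 40 nM exceeded vehicle for NPTX1 by 1.64 ± 0.11 as well. DDC, the decarboxylase that makes dopamine and serotonin, stood at 4.44 to 4.66 at 10 nM, 4.26 to 4.52 in vehicle and 6.16, 6.66 and 7.01 at 40 nM (2.09 ± 0.16). The phospholipase PLA1A had 3.94 to 4.08 at 10 nM, 3.49 to 4.02 in vehicle and 5.80 to 6.23 at 40 nM (adjusted p = 2.7e-07). In DDC and PLA1A the vehicle and 10 nM arrays overlapped and the 40 nM arrays alone were high.

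RBP4, the plasma carrier of retinol, stood at 4.65 to 5.03 in vehicle, 5.10 to 5.28 at 10 nM and 6.95 to 7.03 at 40 nM, and was higher with 40 nM at 24 h as well (1.94 ± 0.12), but its other, dim probe set read -0.045 at 48 h. IFNGR1, a chain of the interferon gamma receptor, had 8.54 to 8.66 at 10 nM, 8.90 to 8.91 in vehicle and 10.03 to 10.28 at 40 nM (1.55 ± 0.08). AHCYL2, B4GALT4, TBXAS1, ABCA8 and VASH2 differed by 1.38 to 1.53. However, TBXAS1 was not called from another probe set (0.15, limma adjusted p = 0.40) and the dim other sets of ABCA8 read 0.04 and 0.10. AHCYL2, TBXAS1 and DDC lie on chromosome 7. Thrombospondin-1 (THBS1) stood at 8.29 to 8.40 at 10 nM, with vehicle (9.74 to 9.92) and 40 nM (9.75 to 10.06) overlapping. In all, vehicle at 48 h lay nearer to 10 nM than to 40 nM in 25 of these 38 genes. By comparison, it lay nearer to 40 nM in 3091 of the 5211 called genes and in 273 of the 377 at 2-fold or more. The share over all genes was not taken. At 24 h, 18 of the 38 were higher with 40 nM and 10 lower.

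Of the 40 genes with like vehicles that were at least 2-fold lower at 40 nM, vehicle lay nearer to 10 nM in 17. This too is to be read beside the 273 of 377 genes with vehicle nearer to 40 nM. Several of the 40 were high on the 10 nM arrays alone. INHBB, an activin subunit, stood at 8.16 to 8.26 at 10 nM, 6.17 to 6.47 at 40 nM and 5.99 to 6.14 in vehicle (-1.84 ± 0.09). PKDCC, a secreted kinase, had 10.30 to 10.39 at 10 nM, 8.79 to 8.92 at 40 nM and 8.74 to 8.86 in vehicle (-1.46 ± 0.07). The adhesion receptor ADGRG2 had 6.47 to 6.71, 5.06 to 5.30 and 5.10 to 5.59. At 24 h these 3 genes were higher with 40 nM than with vehicle, by 1.16 ± 0.09, 1.24 ± 0.07 and 1.37 ± 0.11. Over vehicle at 48 h, 40 nM was 0.31 higher in INHBB, and the ranges of PKDCC and ADGRG2 overlapped with vehicle. Of the 40, 15 were lower with 40 nM at 24 h and 14 higher.

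Lower levels at 40 nM with vehicle and 10 nM together were led by EGR1, a zinc finger factor induced by ERK signalling. EGR1 stood at 8.24, 8.30 and 8.30 at 10 nM, 8.22 to 8.34 in vehicle and 5.66, 5.66 and 5.61 at 40 nM. The vehicle and 10 nM arrays overlapped and the 40 nM arrays lay apart (6.23-fold lower, adjusted p = 1.1e-11), and the other 2 probe sets read -2.10 and -0.83. At 24 h the 40 nM arrays were at 6.31 to 6.60 against 8.52 to 8.64 in vehicle. CORO2B, an actin-binding coronin (-1.24 ± 0.10), TRIB3 (-1.18 ± 0.05), PCBD2 (-1.16 ± 0.11) and TRIM7 (-1.08 ± 0.07) had the same order. Other probe sets differed less, with -0.23 for TRIB3, -0.62 and 0.06 for PCBD2, and -0.16 and 0.23 for TRIM7. In the other direction, IL1A, EFHB, DDC, PLA1A and ANXA13 were 1.61 to 2.43 higher at 40 nM. Vehicle at 48 h lay inside the range of 10 nM or overlapped it. Other, dim probe sets read -0.05 for EFHB and 0.46 for DDC. Vehicle at 48 h minus vehicle at 24 h, after the step, was 2.32 in ANXA13, 0.99 in EFHB and 0.885 in IL1A. In DDC it was -0.16 and in PLA1A 0.12.

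Genes ordered vehicle, 10 nM, 40 nM without overlap were led, among those rising, by the chemokines CCL2 (2.05 ± 0.09), CCL20 (2.02 ± 0.10) and CXCL8 (2.01 ± 0.06), then RBP4 (1.80 ± 0.12) and TM4SF4, a tetraspanin-like membrane protein (1.80 ± 0.09). Among those falling, AXL, a receptor tyrosine kinase and HSP90 client, came first, with 10.97 to 11.03 in vehicle, 10.80 to 10.84 at 10 nM and 9.53 to 9.58 at 40 nM (-1.26 ± 0.05, adjusted p = 3.8e-10). The other probe set of AXL read -0.37. NIBAN1, a stress-induced regulator of translation (means of 9.29, 9.12 and 8.12), the pyruvate carrier MPC1 (-0.99 ± 0.13), the transcription factor KLF4 (-0.96 ± 0.09) and the stress factor NUPR1 (-0.87 ± 0.10) followed. In these 5 the difference of 10 nM from vehicle (-0.56 to -0.17) was smaller than that of 40 nM from 10 nM.

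The share of called members is given beside the 26.4% of all genes, which include dim ones. That share depends on level. With the dimmest 40% of genes left out, 5431 of 11865 were called, a larger share. The list share was 25.9% in the BCL2 family, 31.6% in metallothionein and iron, and 32.3% in G1/S. It was 33.3% in the respiratory chain and in the AGR2 and mucin list. The histone (3 of 15) and ribosomal protein (4.3%) lists lay below 26.4%. The other lists that are not cell markers had 40.0% or more. Shares among genes of like level were not taken. A list share above 26.4% therefore does not show more calls than in genes of that level.

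NF-kB and inflammatory genes showed the largest median of the lists, with 25 of 38 measured genes higher at 40 nM and 2 lower, and a median difference of 0.63 beside -0.01 over all genes. Against vehicle at 48 h the median of the list was 0.64 at 10 nM and 1.57 at 40 nM. Among the 17 members with like vehicles, 7 were higher and 1 lower, with a median of 0.28. Several members also differed between the vehicles, CXCL1 by 3.13 and CCL20 by 3.20 after the step, and the part that this plays was not tested.

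Stretches upstream of 7 members, taken from RefSeq on GRCh38.p14, show the letters that NF-kB-type sites share with each other. The search was for GGNNTTTCC on both strands in windows from 250 bases before to 50 after the start, where N is any base. It matched 18 of 31 list members with a window (58.1%), 15 of 21 among those higher at 40 nM, 2 of 9 among those not passing and 1 of 1 among those lower, against 6.3% of 27305 windows of the same length. Capitals mark the matches in the 250 bases before each start, printed 5′ to 3′ on the gene's strand. CXCL8, CXCL1, CXCL3, CCL20 and IL6 are chemokine and cytokine genes that were higher at 40 nM, NFKBIA encodes the inhibitor IkB-alpha, and VCAM1 is an adhesion molecule that was lower. A match describes letters and shows no binding. The list was put together as NF-kB and inflammatory genes, so its share beside that of all windows is no test of NF-kB. The split by call was not tested either.
CXCL8, chr4:73740319-73740568, plus strand: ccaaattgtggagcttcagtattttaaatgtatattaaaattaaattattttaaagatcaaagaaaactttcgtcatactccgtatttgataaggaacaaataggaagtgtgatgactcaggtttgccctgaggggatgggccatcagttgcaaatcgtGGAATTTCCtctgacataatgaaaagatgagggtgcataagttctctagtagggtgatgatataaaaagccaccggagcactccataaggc
CXCL1, chr4:73869143-73869392, plus strand: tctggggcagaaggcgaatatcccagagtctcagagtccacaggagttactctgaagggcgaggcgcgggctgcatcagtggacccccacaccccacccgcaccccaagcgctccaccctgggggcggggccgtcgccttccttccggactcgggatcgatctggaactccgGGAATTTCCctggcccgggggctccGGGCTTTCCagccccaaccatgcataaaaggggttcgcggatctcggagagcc
CXCL3, chr4:74038690-74038939, minus strand: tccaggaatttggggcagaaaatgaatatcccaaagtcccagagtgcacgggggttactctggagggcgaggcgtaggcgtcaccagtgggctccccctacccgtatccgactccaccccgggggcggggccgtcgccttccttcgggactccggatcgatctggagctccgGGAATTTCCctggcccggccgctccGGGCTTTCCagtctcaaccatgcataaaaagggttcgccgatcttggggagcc
CCL20, chr2:227813592-227813841, plus strand: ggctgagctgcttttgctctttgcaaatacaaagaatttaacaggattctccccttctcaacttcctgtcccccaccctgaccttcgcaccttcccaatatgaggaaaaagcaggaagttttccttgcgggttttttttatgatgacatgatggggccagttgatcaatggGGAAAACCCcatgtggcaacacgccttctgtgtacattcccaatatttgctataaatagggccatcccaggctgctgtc
IL6, chr7:22726950-22727199, plus strand: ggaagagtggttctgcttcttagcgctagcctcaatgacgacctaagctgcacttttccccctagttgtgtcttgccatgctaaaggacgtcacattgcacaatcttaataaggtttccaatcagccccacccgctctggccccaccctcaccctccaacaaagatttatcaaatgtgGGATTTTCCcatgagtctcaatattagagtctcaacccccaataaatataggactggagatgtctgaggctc
NFKBIA, chr14:35404750-35404999, minus strand: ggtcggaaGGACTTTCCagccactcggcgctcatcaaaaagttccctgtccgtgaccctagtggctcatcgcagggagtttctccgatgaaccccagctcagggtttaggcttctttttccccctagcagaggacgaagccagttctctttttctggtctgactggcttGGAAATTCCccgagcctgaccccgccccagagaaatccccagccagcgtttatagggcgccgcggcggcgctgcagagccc
VCAM1, chr1:100719492-100719741, plus strand: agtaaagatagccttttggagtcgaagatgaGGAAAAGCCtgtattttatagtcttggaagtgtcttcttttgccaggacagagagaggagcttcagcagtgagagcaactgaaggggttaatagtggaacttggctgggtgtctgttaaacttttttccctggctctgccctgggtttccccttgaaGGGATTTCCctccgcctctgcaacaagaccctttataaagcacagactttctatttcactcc

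CXCL8, which attracts neutrophils, stood at 10.47, 10.45 and 10.49 at 10 nM and at 12.51, 12.38 and 12.56 at 40 nM, where vehicle at 48 h was 10.30 to 10.39. The 10 nM and vehicle arrays lay close together, apart by 0.12, and the 40 nM arrays alone were high (4.03-fold over 10 nM, adjusted p = 3e-11). Its other probe set read 2.82. The CXCL1 chemokine, with 2 matched sites, stood at 11.06 to 11.15 at 10 nM, 11.67 to 11.72 in vehicle and 13.14 to 13.21 at 40 nM (2.06 ± 0.08). CXCL3 rose with dose from 9.80 in vehicle through 10.20 to 11.92 (group means), and CXCL2 from 10.29 through 11.11 to 12.01. CXCL5, which acts on the same receptor family, differed by 0.52 ± 0.06.

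CCL20, which attracts dendritic and T cells, stood at 7.53 to 7.68 in vehicle, 8.90 to 9.06 at 10 nM and 10.97 to 11.07 at 40 nM. The 3 groups did not overlap. CCL2, the monocyte attractant, stood at 9.39 to 9.56, 10.51 to 10.67 and 12.61 to 12.70 in the same order. IL6 stood at 8.27 to 8.42 in vehicle, 9.16 to 9.32 at 10 nM and 10.14 to 10.25 at 40 nM (0.95 ± 0.07, adjusted p = 1.8e-07), while at 24 h 40 nM and vehicle differed by -0.15 ± 0.07 (adjusted p = 0.11). This gene lies on chromosome 7. IL1B (1.10 ± 0.10) and IL1A (2.43 ± 0.14) were higher at 40 nM, and IL1A was not called from its other, dim probe set (0.01, adjusted p = 0.96). BCL2A1, a survival factor (1.26 ± 0.15), TNFAIP2 (1.03 ± 0.06) and PTGS2, the inducible cyclooxygenase (means of 9.37 at 10 nM and 10.37 at 40 nM), were also higher.

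Of the feedback inhibitors, NFKBIZ was 1.54 ± 0.09 higher at 40 nM, with means of 8.39 at 10 nM, 9.93 at 40 nM and 9.59 in vehicle. NFKBIA had a mean of 9.85 in vehicle, 10.68 at 10 nM and 11.42 at 40 nM (0.74 ± 0.06), and its other probe set, at a mean of 4.41, was not called and had the opposite sign (-0.09). RELB (0.92 ± 0.09), NFKB1 (0.55 ± 0.06), NFKBIE (0.30 ± 0.07) and the deubiquitinase TNFAIP3 (0.29 ± 0.09) were higher at 40 nM. NFKB2 (0.28 ± 0.16) and RELA (0.06 ± 0.07) did not pass. VCAM1 and the chemokine CCL5 were the 2 members lower at 40 nM (-1.43 ± 0.15 and -0.71 ± 0.12). VCAM1 had a mean of 4.38 in vehicle, 8.48 at 10 nM and 7.05 at 40 nM, and CCL5 exceeded its vehicle mean of 5.32 by 3.69 at 10 nM and 2.98 at 40 nM. For these 2 genes and for PTX3 (0.00 ± 0.11, 2.47 above vehicle at 10 nM) the 10 nM arrays were as high as the 40 nM arrays or higher.

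**Figure D4:**
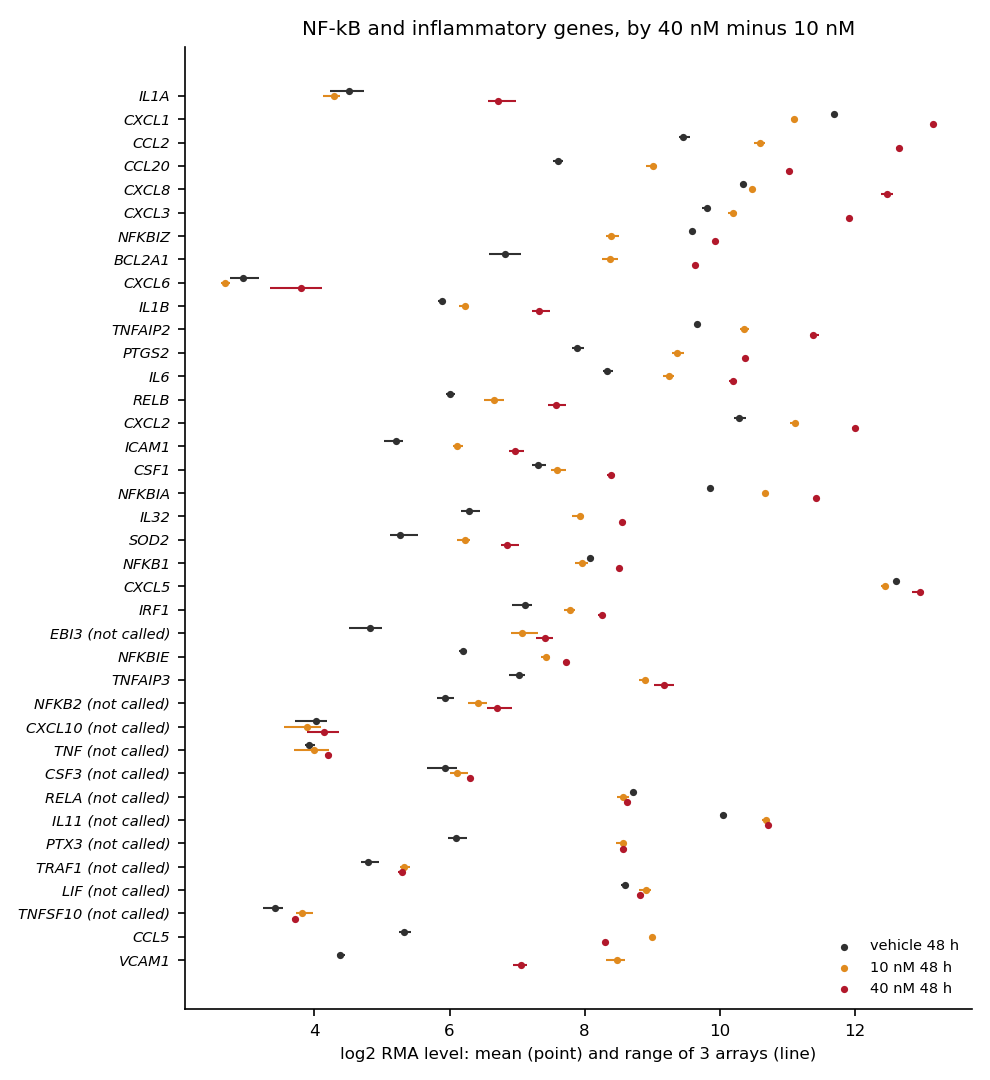
Log2 RMA levels of the 38 NF-kB and inflammatory genes in vehicle, 10 nM and 40 nM at 48 h, as the mean (point) and range (line) of 3 arrays, ordered by 40 nM minus 10 nM. The 40 nM points lie to the right of the 10 nM points for the 25 genes called higher, and VCAM1 and CCL5 at the bottom are reversed.

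Interferon-stimulated genes were split, with 5 of 34 higher and 10 lower at 40 nM and a median of -0.09. Against vehicle at 48 h the list was higher at both doses, with medians of 0.83 at 10 nM and 0.72 at 40 nM. IFI27, a mitochondrial protein induced by type I interferon, stood at 9.29, 9.19 and 8.73 at 10 nM, 5.69, 5.85 and 5.99 at 40 nM, 4.62 to 5.18 in vehicle at 48 h and 4.46 to 4.85 on the 6 arrays at 24 h. The 10 nM arrays alone were high (9.35-fold over 40 nM, adjusted p = 6.5e-09). IFI6, an antiviral membrane protein, stood at 10.45 to 10.50, 8.01 to 8.20 and 7.10 to 7.13 in the groups at 10 nM, 40 nM and vehicle (-2.39 ± 0.09). BST2, which tethers budding virions, had 6.59 to 7.13, 5.14 to 5.64 and 4.89 to 5.32 (-1.51 ± 0.22). HERC5 (-1.20 ± 0.11), the regulator IRF7 (-0.63) and ISG15 (-0.46) were lower too. By contrast TRIM22 (0.93), GBP1 (0.50), PARP9 (0.41), USP18 (0.39) and PARP14 (0.38) were higher, and OAS1, OAS2, OAS3, IFIT1, IFIT3 and MX1 did not pass (-0.15 to 0.29). IFI27, IFI6 and BST2 had vehicle levels within 0.16 of each other at both times.

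The genes that encode the drug's targets were divided between doses. HSP90AA1, the inducible cytosolic HSP90, stood at 13.54 to 13.56 at 10 nM and 13.60 to 13.64 at 40 nM (0.08 ± 0.05, adjusted p = 0.30), with 13.54 to 13.56 in vehicle. Its other probe sets read -0.01, 0.22 and 0.88. HSP90AB1, the constitutive form, had 12.25 to 12.28 at 10 nM, 12.71 to 12.76 at 40 nM and 12.62 to 12.67 in vehicle (0.47 ± 0.05, adjusted p = 3.6e-06). Its other probe sets disagreed, at 0.94 and -0.62. HSP90B1, the form of the endoplasmic reticulum, was lower at 40 nM (-0.45 ± 0.09), and the mitochondrial TRAP1 did not pass (0.05 ± 0.06).

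Heat shock response genes were 14 of 25 higher and 2 lower at 40 nM, with a median of 0.20. Over vehicle at 48 h the median was 0.19 at 40 nM and 0.00 at 10 nM, and over vehicle at 24 h it was 0.53 at 40 nM. HSF1 (0.02 ± 0.06), the co-chaperones DNAJB1 (0.13 ± 0.06) and BAG3 (0.06 ± 0.06) and HSPA6 (0.01) did not pass. The largest differences were those of DNAJB6, a suppressor of aggregation (1.67 ± 0.09), and the small heat shock protein HSPB1 (0.95 ± 0.06), both genes of chromosome 7. HSPB1 stood at 11.47 to 11.63 at 10 nM, 12.45 to 12.57 at 40 nM and 12.40 to 12.46 in vehicle, so the 10 nM arrays were low and the others overlapped. STIP1, which links HSP70 to HSP90 (0.58 ± 0.07), SERPINH1 (0.43), HSPH1 (0.40) and FKBP4 (0.39) were higher, and HSPA13 (-0.59 ± 0.10) and HSPA2 (-0.47) lower. Among the 17 members with like vehicles, 8 were higher and 0 lower, with a median of 0.17.

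Transcripts of HSP90 client kinases and receptors were 9 of 30 higher and 3 lower, with a median of 0.09. FYN, a SRC family kinase (-1.91 ± 0.07), AXL (-1.26 ± 0.05) and the insulin receptor INSR (-0.57) were lower at 40 nM. FYN had a mean of 6.78 at 10 nM, 4.87 at 40 nM and 5.45 in vehicle. The xenobiotic receptor AHR (1.34 ± 0.15), IGF1R (0.72 ± 0.07, and 0.03 in another bright probe set), CDK6 (0.72), MET (0.29) and EGFR (0.27) were higher. AHR, CDK6, MET and EGFR also lie on chromosome 7. ERBB2 (-0.11), AKT1 (0.19), CDK4 (-0.06) and SRC (0.06) did not pass.

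Genes of the amino acid response, which ATF4 switches on when amino acids run short, were mostly lower at 40 nM, 19 of 29 against 4 higher, with a median of -0.32. The median at 40 nM over vehicle was -0.44 at 48 h and -0.76 at 24 h, and 10 nM over vehicle had -0.05. TRIB3, a pseudokinase that damps the response, stood at 10.90 to 10.94 at 10 nM, 10.94 to 10.96 in vehicle and 9.70 to 9.78 at 40 nM (adjusted p = 1.4e-09). At 24 h it had 9.66 to 9.82 at 40 nM and 11.03 to 11.04 in vehicle. DDIT3, the factor also called CHOP, stood at 8.75 to 8.87 at 10 nM, 8.39 to 8.53 in vehicle and 7.67 to 7.74 at 40 nM (-1.11 ± 0.07). CHAC1, which breaks down glutathione (-1.14 ± 0.10), CTH (-0.83), CEBPG (-0.66), SLC38A2 (-0.61) and ATF4 itself (-0.39) were lower. ASNS, asparagine synthetase, did not pass (-0.04), and the transport heterodimer SLC3A2 (0.75) and SLC7A5 (0.57) was higher. Among the 25 members with like vehicles, 15 were lower and 4 higher, with a median of -0.29. Unfolded protein response genes were divided, 7 of 24 higher and 6 lower, with a median of 0.04. PDIA4 (0.90 ± 0.06) and DNAJB9 (0.46 ± 0.10), both on chromosome 7, and EDEM1 (0.47 ± 0.06) were higher, and HERPUD1 lower (-0.48 ± 0.05, not called from another probe set at -0.07).

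NRF2 targets, which detoxify quinones and rebuild glutathione, were 17 of 28 higher at 40 nM and 1 lower, with a median of 0.17. HMOX1, heme oxygenase, stood at 9.19 to 9.22 at 10 nM, 8.96 to 9.04 in vehicle and 10.18 to 10.27 at 40 nM, and the groups were ordered by dose without overlap (1.03 ± 0.06, adjusted p = 1.8e-08). GPX2, the gut-type glutathione peroxidase, had 9.07 to 9.24 in vehicle, 11.10 to 11.14 at 10 nM and 11.71 to 11.77 at 40 nM (0.62 ± 0.07), so that most of its distance from vehicle was already there at 10 nM. PGD (0.97 ± 0.06) and IDH1 (0.70 ± 0.05), which supply NADPH, and GCLM (0.59), of glutathione synthesis, were higher. NQO1 did not pass (0.09 ± 0.05), with means of 13.64 and 13.73, nor did PRDX1 (-0.08), TXN (0.10) or GCLC (0.15). The cystine carrier SLC7A11 was lower (-0.29). Among the 21 members with like vehicles, 11 were higher and 1 lower, with a median of 0.15. AHR pathway genes were 6 of 12 higher and 0 lower (median 0.26), and 2 of 6 with like vehicles. CYP1B1, a steroid and xenobiotic hydroxylase, had a mean of 6.90 at 10 nM, 9.10 at 40 nM, 9.71 in vehicle at 48 h and 5.13 in vehicle at 24 h, while CYP1A1 stood at 4.28 and 4.43 (adjusted p = 0.32).

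p53 targets were 11 of 26 higher and 2 lower at 40 nM, with a median of 0.18, and lay above vehicle at both doses (medians of 0.39 and 0.55). CDKN1A, the p21 inhibitor of cyclin-dependent kinases, stood at 9.41 to 9.51 in vehicle, 10.23 to 10.27 at 10 nM and 10.82 to 10.89 at 40 nM (0.60 ± 0.06, adjusted p = 2.3e-06). PHLDA3 (0.52 ± 0.06), SESN1 (0.42 ± 0.09), ZMAT3 (0.41), AEN (0.35) and MDM2 (0.25) were higher, and BAX (-0.42 ± 0.09) and SESN2 (-0.34) lower. Among the 20 members with like vehicles, 10 were higher and 2 lower. The BCL2 family and death receptor list gave 3 of 27 higher, 4 lower and a median of -0.02, which was 0.00 under cyclic loess scaling. BCL2L11, also called BIM, had a mean of 8.70 at 10 nM, 8.01 at 40 nM and 7.49 in vehicle (-0.69 ± 0.08), and BID was higher (0.40 ± 0.06).

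Cell cycle genes had small differences at 48 h beside those above. G2/M and mitosis genes were 1 of 31 higher and 12 lower at 40 nM, with a median of -0.14, against 0.17 for 10 nM over vehicle and 0.04 for 40 nM over vehicle. At 24 h, 40 nM over vehicle had a median of -0.97. PTTG1, the securin (-0.51 ± 0.05), the phosphatase CDC25C (-0.50 ± 0.10, but 0.37 and -0.07 in its other probe sets), the spindle kinase TTK (-0.47 ± 0.08) and AURKB (-0.46 ± 0.06) led. AURKB had means of 10.40 at 10 nM, 9.94 at 40 nM and 10.08 in vehicle. G1/S and DNA replication genes were 6 of 31 higher and 4 lower (median 0.10), from MCM7 (0.50 ± 0.06, on chromosome 7) and CCNE2 (0.44 ± 0.10) to RFC4 (-0.41 ± 0.06). Histone genes were 0 of 15 higher and 3 lower, among them H2AJ (-1.12 ± 0.06) and the linker histone H1-2 (-0.72 ± 0.11), with medians over vehicle of 0.54 at 10 nM and 0.38 at 40 nM.

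Proteasome subunits were mostly lower at 40 nM, 16 of 27 against 2 higher, with a median of -0.17. All 27 had like vehicles. PSMC3 (-0.43 ± 0.06), PSMA7 (-0.41 ± 0.06) and PSMC6 (-0.39 ± 0.05) had the largest differences. PSMA7 had means of 12.45 at 10 nM, 12.04 at 40 nM and 12.13 in vehicle, and the list medians over vehicle were 0.11 at 10 nM and -0.09 at 40 nM. Class I presentation genes were 3 of 17 higher and 5 lower (median 0.03), with TAPBP (0.47 ± 0.10) and TAP1 (0.41 ± 0.08) higher and CALR lower (-0.30 ± 0.06, not called from another probe set at -0.03). Cytosolic ribosomal proteins gave 0 of 23 higher and 1 lower (median -0.06), and the respiratory chain 2 of 24 higher and 6 lower (median -0.06). Autophagy and lysosome genes were 5 of 25 higher and 6 lower (median 0.12), from the proton pump subunit ATP6V0D1 (0.66 ± 0.05) to the cholesterol exporter NPC1 (-0.63 ± 0.09), cathepsin B, CTSB (-0.59 ± 0.05), and GABARAPL1 (-0.76 ± 0.15).

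Lipid and sugar metabolism gave a few members with larger differences. Cholesterol and fatty acid synthesis genes were 8 of 20 higher and 3 lower (median 0.16). INSIG1, which retains the sterol sensor in the endoplasmic reticulum and lies on chromosome 7, stood at means of 7.14 at 10 nM, 8.44 at 40 nM and 8.35 in vehicle (1.30 ± 0.08). The desaturase SCD was higher (0.88 ± 0.06) with vehicle between the doses, and PMVK lower (-0.58 ± 0.06). Glycolysis and hypoxia genes were 8 of 26 higher and 4 lower (median 0.05). PFKFB4, which sets the glycolytic activator fructose 2,6-bisphosphate, rose with dose from 7.54 in vehicle through 8.37 to 9.31 (0.94 ± 0.07, limma adjusted p = 1.6e-07). Its other probe set, at a mean of 4.73, read 0.12. The oxygen sensor EGLN3 was higher (0.99 ± 0.12), while hexokinase HK2 was lower (-0.69 ± 0.15). Metallothionein and iron genes were 4 of 19 higher and 2 lower (median -0.03), led by the iron exporter SLC40A1 (1.49 ± 0.10).

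Matrix and mesenchymal genes were 12 of 27 higher and 5 lower at 40 nM (median 0.11). Like vehicles were found for 13 of the 27, and 4 of these were higher and 2 lower (median -0.01). COL12A1 (2.68 ± 0.17), ZEB2, a repressor of epithelial genes (1.62 ± 0.14), and THBS1 (1.54 ± 0.08) were higher and SPARC lower. LUM, a proteoglycan of the fibroblast list, had means of 2.92 at 10 nM, 5.53 at 40 nM and 6.37 in vehicle, and was not called from another probe set (0.02). Epithelial junction and keratin genes were 5 of 25 higher and 7 lower (median -0.06). KRT19 stood at 5.63 to 6.05 at 10 nM, a mean of 8.95 at 40 nM (lowest array 8.84) and 8.24 to 8.39 in vehicle (3.05 ± 0.15), and desmoplakin, DSP, at means of 9.71, 7.86 and 7.79 (-1.85 ± 0.08). E-cadherin, CDH1, stood at 9.70 to 9.84 at 10 nM, 8.72 to 8.74 at 40 nM and 6.92 to 6.99 in vehicle (-1.05 ± 0.06, adjusted p = 1.1e-08). At 24 h CDH1 was 10.09 to 10.20 at 40 nM and 7.31 to 7.41 in vehicle, so it lay above vehicle with geldanamycin in every comparison, and highest at 48 h with 10 nM.

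AGR2, mucin and trefoil genes were 8 of 24 higher and 0 lower (median 0.10), and 1 of 12 with like vehicles, whose median was -0.03. TM4SF20, TM4SF4 and MUC13 (1.25 ± 0.13) were higher, as was MUC5AC (1.15 ± 0.11), which was not called from another probe set (0.09). Complement and acute phase genes were 8 of 23 higher and 2 lower (median 0.15), and 2 higher and 1 lower of 12 with like vehicles, whose median was 0.15 as well. Complement factor B, CFB, had means of 7.43 in vehicle, 7.71 at 10 nM and 9.23 at 40 nM (1.52 ± 0.11, not called from another probe set at 0.06), and the iron-binding LCN2 rose from 7.59 through 8.56 to 9.67 (1.11 ± 0.08). Actin and SRF targets were 10 of 23 higher and 1 lower (median 0.07, or -0.01 over the 17 with like vehicles), with TAGLN (1.30 ± 0.09, not called from another probe set at 0.06), CALD1 (0.95 ± 0.06) and CNN3 (0.77 ± 0.07, but -0.38 in its other probe set) higher and FHL2 (-1.08 ± 0.06) lower. Of these 4 genes, CALD1 lies on chromosome 7.

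ERK pathway output genes were 5 of 25 higher and 7 lower (median -0.15), and 5 higher and 4 lower of 22 with like vehicles. EGR1, DUSP6, the ERK phosphatase (-0.75 ± 0.11), and FOS (-0.57 ± 0.12) were lower, and CCND1 (0.80 ± 0.06), DUSP5 (0.60 ± 0.09) and MYC (0.43) higher. FOS stood at 7.21 to 7.44 in vehicle, 5.49 to 5.74 at 10 nM and 4.86 to 5.20 at 40 nM. The 10 nM level of FOS thus lay nearer to 40 nM, where that of EGR1 lay at vehicle. Glucocorticoid receptor targets, whose receptor is an HSP90 client, were 3 of 16 higher and 4 lower (median -0.07). CRISPLD2 (-1.20 ± 0.07), SCNN1A (-0.93 ± 0.09) and ANGPTL4 (-0.60 ± 0.11) were lower and NFKBIA higher. Other, dim probe sets read -0.06 for CRISPLD2, -0.13 and -0.24 for SCNN1A and 0.08 for ANGPTL4.

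**Figure D5:**
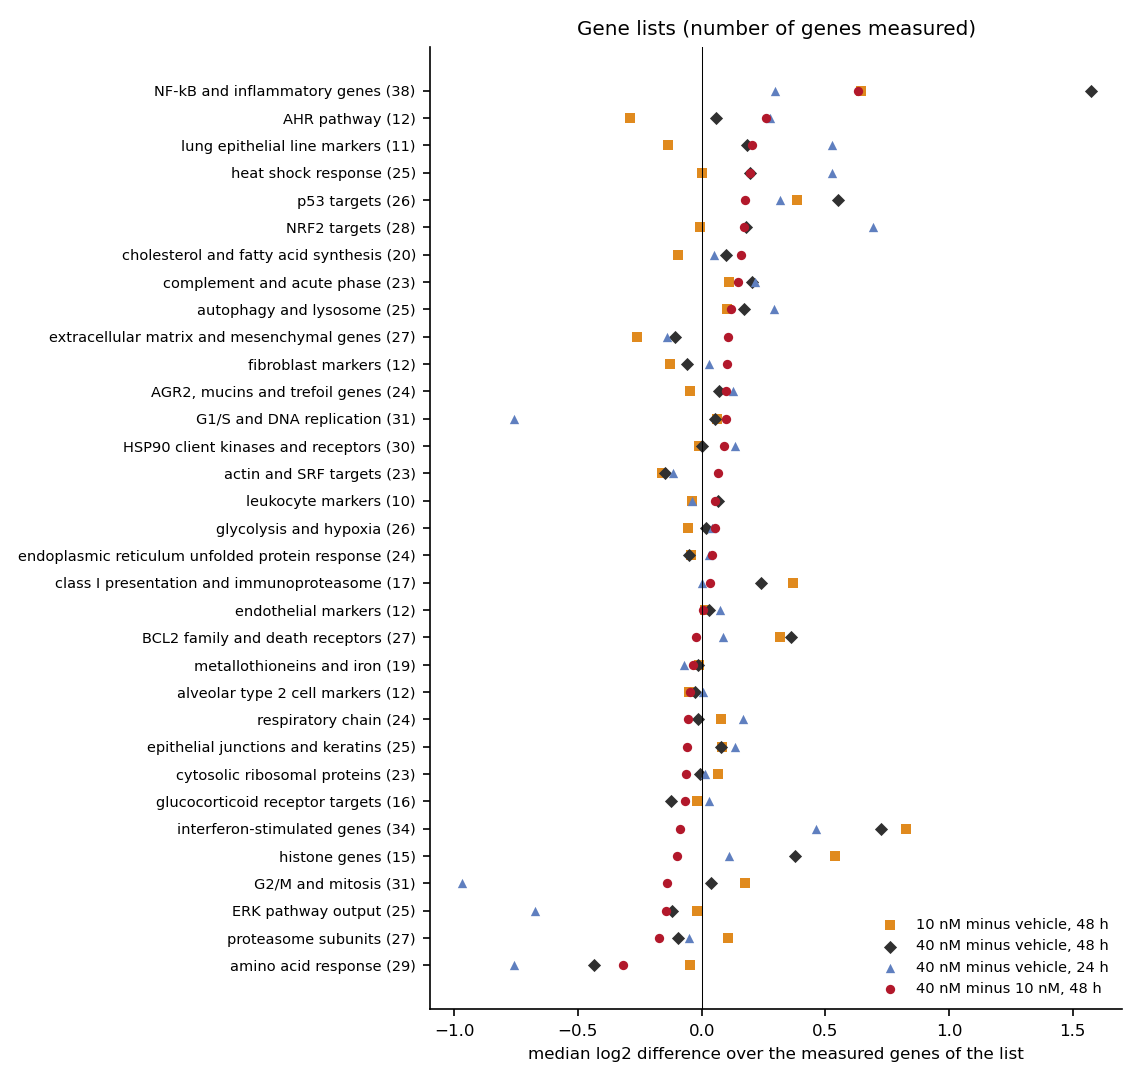
Median log2 difference over the measured genes of 33 lists for 40 nM minus 10 nM (circles), 10 nM minus vehicle (squares) and 40 nM minus vehicle (diamonds) at 48 h, and 40 nM minus vehicle at 24 h (triangles). The first 3 share arrays and are shown side by side only. The NF-kB list has the highest circle (0.63) and the amino acid response the lowest (-0.32).

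The comparison of 40 nM with vehicle at 24 h uses none of the 6 arrays and called 6222 genes (31.5%). Of these, 2877 were called between doses at 48 h as well, which is 55.2% of the calls between doses and 46.2% of those at 24 h. The sign was the same in 1975 of the 2877 (68.6%) and opposite in 902. Among genes with like vehicles the share with the same sign was 69.6% of 2134, and among the others 65.8% of 743.

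Other probe sets of the same gene gave a further reading of the 6 arrays. Over 21316 other probe sets of 10523 genes, 61.0% had the sign of the gene's main probe set, and 71.4% did where the gene was called. For genes of at least 2-fold the share was 82.8% of 518, and 93.0% of the 100 whose mean was above 6. A probe set that reads another part of a transcript can differ on arrays that differ at 5′ ends, as the ACTB controls did here, and that part was not tested for single genes.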

How the data were processed

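The authors deposited log2 RMA expression values for 54675 probe sets on 15 HG-U133 Plus 2.0 arrays, 3 in each of 5 groups. Per the submitters' processing notes the software was Affymetrix Expression Console with RMA (version not given in the sources used here). The number of arrays limits the precision. The values at 24 h and 48 h have different overall means, so the step between the vehicles was removed before levels were set across times. Per gene, the probe set with exactly 1 symbol and the highest mean over the 15 arrays was kept, which gave 19775 genes. Differences were tested by linear models in limma 3.58.1 under R 4.3.3 (lmFit, then eBayes, 1 mean per group, 10 residual degrees of freedom, Benjamini-Hochberg over all genes, threshold 0.05), and the script was tested on simulated data. Named genes were the 15 largest called differences each way without overlap, the 5 largest each way by where vehicle lay, up to 4 called members of each list, the HSP90 genes and controls, and members picked to show a list's range, together with genes alike between vehicles, class II genes and others chosen after their values were seen. The comparison, the 33 lists and these rules were chosen with earlier results of these data known. Same-numbered arrays of both doses had residual correlations of -0.20, 0.29 and -0.04, so the numbers were not treated as pairs. Promoter windows came from RefSeq on GRCh38.p14. The alternatives were 17 planned settings and 2 chosen after seeing the data. Probe sets with several symbols (1801) or none (11721) were left out.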

Additional observations from a re-analysis of the deposited data

Results flagged for a closer look

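The 3′ control probe set of 18S ribosomal RNA, which enters no comparison, averaged 9.05 ± 0.05 (SD, n = 3) on the 10 nM arrays, above 7.97 ± 0.15 in vehicle at 48 h and 8.17 ± 0.07 at 40 nM. Its range at 10 nM, 8.99 to 9.08, did not overlap with either of the other groups. The 5′ and middle sets of 18S had the same order, at 7.04, 5.92 and 6.32 and at 6.71, 6.18 and 6.37 for 10 nM, vehicle and 40 nM. Among the probe sets that have no gene name here, 102 were at least 2-fold apart between 40 nM and 10 nM without overlap, 69 of them higher and 33 lower at 40 nM. These were not tested.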

How the results depend on the processing

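The calls between doses numbered 3733 to 7275 over the 17 planned settings, against 5211. The highest is from array weights, whose estimation stopped before full convergence. Averaging a gene's probe sets left 227 genes at 2-fold or more in place of 377. Fitting only genes with like vehicles gave 3826 calls, 1520 higher and 2306 lower at 40 nM (39.7% higher, against 45.0%), with 78 at 2-fold or more, and leaving out chromosomes 3, 7, X and Y gave 4268 calls, both settings chosen after seeing the data and both with fewer genes tested. Leaving out single arrays gave 4231 to 4853 calls, 1902 to 2117 higher, 2152 to 2883 lower and 378 to 385 at 2-fold or more. With the replicate block 4894 genes were called, although the numbers do not pair the arrays. Of 203 named genes, 24 lost the call in at least 1 setting and 8 changed sign. With the mean of probe sets SLC30A1 read -0.041 and ACO1 0.036. Without probe sets marked as matching several sequences (_x_at and _s_at), GINS2 read 0.03, TAP2 0.25, NFKBIA -0.091, ACO1 0.25, MACROH2A1 0.40, CDC27 0.006 and KLF2 0.031, and the cause was not tested beyond the change of probe set. In that setting the list medians of the unfolded protein response (-0.02), glucocorticoid (0.04), actin (-0.01), metallothionein (0.13), histone (0.03), interferon (0.01), BCL2 (0.03) and fibroblast lists (-0.10) had the opposite sign. No setting could separate the dose from the other differences of the 10 nM arrays, since all 3 share them. Signal over background limits the dim probe sets, whose folds may be understated.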
